A study of Mus musculus with 4 samples.

Results

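The genes described are the 7 of the creatine system in cultured mouse cortical astrocytes, taken as the entries of the count table whose symbol is Ckb, Ckm, Ckmt1, Ckmt2, Gatm, Gamt or Slc6a8. All 7 were found, each once, among 45703 genes. Poly-A RNA was sequenced from 4 cultures, numbered 1 to 4, which form a single group with no contrast. All cultures shared the same source and handling: frontal cortex of CD-1 mice (outbred) aged postnatal day 4, a serum medium with B27 and 10 ng/ml EGF, reseeding at day 6 in vitro, and RNA taken 3 days on, following 1 h in serum-free Ham's medium. The labels name no sort or antibody step and no sex, and give neither the number of animals per culture nor whether the cultures were prepared apart, so a p-value here speaks only of how these 4 libraries vary, which may be technical.

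Creatine kinases move a phosphate group between ATP and creatine, so that phosphocreatine can buffer and carry energy inside a cell. Creatine is made in 2 steps: Gatm joins the amidino group of arginine to glycine in mitochondria to give guanidinoacetate and ornithine, and Gamt methylates guanidinoacetate with S-adenosylmethionine to give creatine. Slc6a8 carries creatine across the plasma membrane together with sodium and chloride. Ckb is the brain-type kinase of the cytosol, Ckm the muscle type, Ckmt1 the ubiquitous kinase of the mitochondrial intermembrane space, and Ckmt2 the mitochondrial kinase of striated muscle. In the human, inherited loss of GATM, GAMT or SLC6A8 causes cerebral creatine deficiency.

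The libraries held 37300485 to 42369109 counts. Levels are given as CPM (counts scaled to a library sum of 1000000) or, between genes, as RPKM (CPM per kilobase of the deposited exon length), with means ± SD over the 4 cultures (n = 4), and expressed means 1 CPM or more in all 4 libraries. Culture 4 stood apart from cultures 1 to 3. Over genes with at least 20 counts in a pair of libraries, the mean chi-square per gene was 36.4 to 37.9 between culture 4 and the others and 2.03 to 3.01 among cultures 1 to 3, where 1 is sampling noise alone. All 4 were counted as samples, but a spread above sampling noise does not tell separate cultures from repeat libraries of the same cells. The common biological coefficient of variation (BCV, the SD between cultures as a share of the mean) was 0.107 in all 4 libraries, 0.0262 without culture 4, and 0.124 to 0.127 without culture 1, 2 or 3. Of the markers of astrocytes 10 of 10 were expressed, with summed levels of 8009 CPM in culture 4 and 8842 to 9022 CPM in cultures 1 to 3. That list went both ways: in culture 4, 5 markers were below all other cultures, among them Gfap (779.7 CPM in culture 4, 1498 to 1555 CPM in the others) and Aqp4 (706.8 CPM in culture 4, 903.6 to 1015 CPM in the others). The other 5 (Glul, Aldoc, Slc1a2, Aldh1l1 and Sox9) were above all other cultures, Glul at 1695 CPM in culture 4 and 1523 to 1567 CPM in the others. Of oligodendrocyte lineage markers 6 of 10 were expressed (1702 CPM in culture 4, 1548 to 1598 CPM in the others; Mog had 1 count), and of neuronal markers 5 of 8 (181.5 CPM in culture 4, 201.5 to 207.0 CPM in the others; Rbfox3 had 12 counts). Microglial markers came to 53.9 CPM in culture 4 and 77.8 to 83.1 CPM in the others (6 of 7 expressed), and fibroblast markers to 491.0 CPM in culture 4 and 1322 to 1407 CPM in the others (3 of 5). The sums in culture 4 and in the others were 2000 and 1916 to 2035 CPM for mural markers (4 of 5 expressed; Acta2 alone had 1950 and 1851 to 1973 CPM, while Pdgfrb had 20.9 and 30.4 to 31.4 CPM), 6.09 and 7.03 to 7.93 CPM for endothelial markers (1 of 5; Cldn5 had 1 count) and 192.6 and 183.2 to 203.4 CPM for ependymal markers (2 of 4; Tmem212 had 1 count). In bulk libraries fewer cells of a type and less RNA per cell cannot be told apart.

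Because the kinases are paralogues, the same stretch of coding sequence around the codon of the active-site cysteine is shown for all 4, as it shows how far their reads can be told apart. Capitals mark bases that are unlike Ckb at the same place; the sequences are the sense strand of GENCODE M21 transcripts (GRCm38), 60 bases each.
Ckb: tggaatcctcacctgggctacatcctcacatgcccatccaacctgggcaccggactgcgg
Ckm: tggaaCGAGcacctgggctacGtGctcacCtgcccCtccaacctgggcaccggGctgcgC
Ckmt1: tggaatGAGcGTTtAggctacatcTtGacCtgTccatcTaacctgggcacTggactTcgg
Ckmt2: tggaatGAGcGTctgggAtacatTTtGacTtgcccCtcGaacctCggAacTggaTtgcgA

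In this stretch 10 bases of Ckm, 14 of Ckmt1 and 17 of Ckmt2 were unlike Ckb. Over the aligned coding sequences Ckb was 76.4% identical to Ckm, 67.0% to Ckmt1 and 67.3% to Ckmt2, and Ckmt1 was 71.6% identical to Ckmt2. No stretch of 50 bases in the longest coding transcript of Ckm, Ckmt1, Ckmt2, Gatm, Gamt or Slc6a8 was found in a GENCODE transcript of another gene. Ckb was the exception, with 312 of 1423 such stretches (21.9%) shared with another gene, 309 of them with Gm12892.

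Promoters are shown for the kinases, whose levels spanned the widest range of the set: 150 bases up to the annotated start, from RefSeq (GRCm38.p6), with CCAAT and TATAAA on either strand in capitals. For Ckmt1 and Ckmt2 that start lies within the gene limits given below, so their windows reach into those limits. The table of promoters held 6 of the 7 genes, and Slc6a8 was the gene without an entry.
Ckb (chr12:111672339-111672488, - strand): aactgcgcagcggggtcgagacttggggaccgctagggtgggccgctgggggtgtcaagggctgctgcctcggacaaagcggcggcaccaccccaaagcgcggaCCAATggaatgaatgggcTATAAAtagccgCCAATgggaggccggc
Ckm (chr7:19410944-19411093, + strand): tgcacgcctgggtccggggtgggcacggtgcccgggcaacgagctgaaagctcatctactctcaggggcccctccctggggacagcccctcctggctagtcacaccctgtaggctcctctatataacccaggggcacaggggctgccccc
Ckmt1 (chr2:121357626-121357775, + strand): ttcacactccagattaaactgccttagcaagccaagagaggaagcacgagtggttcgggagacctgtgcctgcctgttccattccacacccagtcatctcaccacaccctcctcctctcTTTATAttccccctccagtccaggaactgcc
Ckmt2 (chr13:91876886-91877035, - strand): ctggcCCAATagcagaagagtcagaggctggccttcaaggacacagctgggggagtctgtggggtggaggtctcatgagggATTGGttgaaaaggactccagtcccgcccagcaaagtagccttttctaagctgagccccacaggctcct

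The Ckb window held CCAAT at 2 places and TATAAA at 1, starting 28 bases before the annotated start. Ckmt2, with no count in any library, also held CCAAT at 2 places, and Ckmt1 held TATAAA on the opposite strand, 31 bases before the start shown (its other annotated start, not shown, had neither motif). The Gatm window held CCAAT at 1 place and that of Gamt neither motif, but Gamt had the GC box GGGCGG at 3 places on either strand. Ckmt2 also held GGGCGG, at 1 place that is not in capitals above, and the other windows of the set held none. No exact match to CCAAT or TATAAA was found in the Ckm window, although it held the similar letters tatataa near the start. Only exact matches were counted. Of all 32851 promoters of the same length, 24.5% held CCAAT, 7.57% TATAAA and 28.6% GGGCGG on either strand. In the 4 windows shown no CCAAT overlapped a TATAAA, and a match is a description of letters only.

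Of the 7 genes 5 were expressed, namely Ckb, Ckmt1, Gatm, Gamt and Slc6a8. For comparison, 32.2% of all genes in the table and 58.1% of the protein-coding genes met the same minimum. Ckm had 2 counts in all and Ckmt2 had 0, both at or under the floor of 3 counts over the 4 libraries, so that no mean level is read from either.

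**Figure D1:**
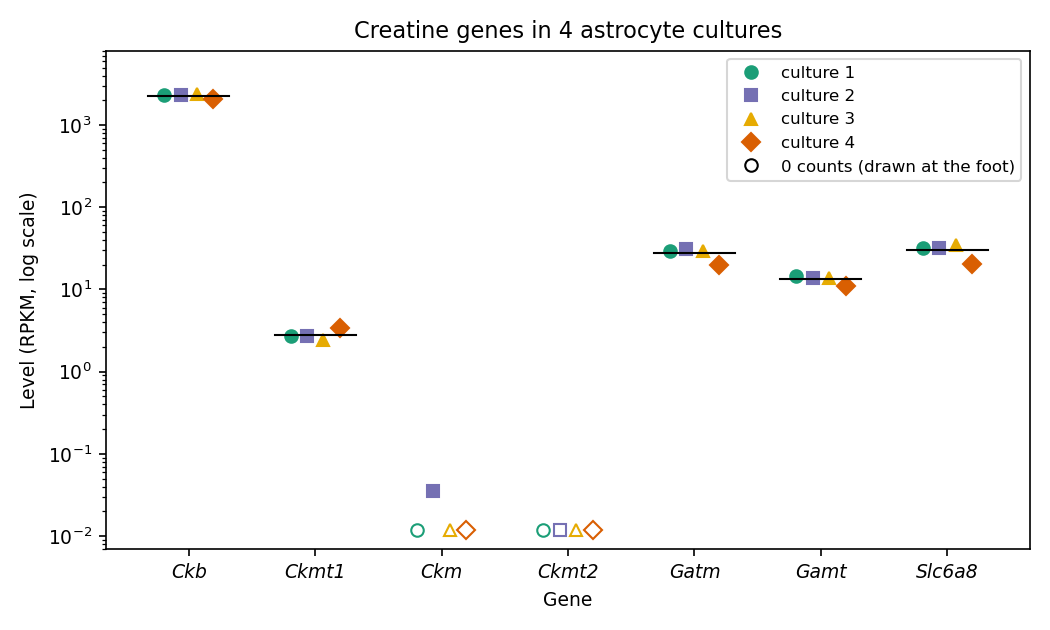
RPKM (log axis) of the 7 creatine genes in each of the 4 cultures; lines are means over the cultures, open symbols stand for 0 counts and are drawn at the foot of the axis. Ckb lies between 2084 and 2394 RPKM, Gatm, Gamt and Slc6a8 between 11.2 and 34.4 RPKM, Ckmt1 between 2.42 and 3.43 RPKM, and the muscle forms Ckm and Ckmt2 have almost no counts.

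The cytosolic brain form dominated the kinases. Ckb (GeneID 12709; GRCm38.p6 chromosome 12, 111669355 to 111672338, minus strand) stood at 3419, 3390, 3538 and 3080 CPM in cultures 1 to 4, or 2313, 2294, 2394 and 2084 RPKM. All 4 values lay close together, with culture 3 the highest and culture 4 the lowest. At 2271 ± 132.2 RPKM it was the 7th highest gene of the 45703 on that scale and also the 7th in CPM (3357 ± 195.4), and it took 0.335% of all counts. Among protein-coding genes its neighbours in RPKM were Cst3, the secreted protease inhibitor cystatin C, above it at 2858 ± 333.1 RPKM, and Eef1a1, the translation elongation factor, below it at 2198 ± 108.9 RPKM. The order was not the same in every culture: in culture 4 Eef1a1 stood at 2360 RPKM, above Ckb, while in cultures 1 to 3 it stood at 2128 to 2156 RPKM, below Ckb. Ckb was above Eef1a1 by less than the SD of either gene.

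The mitochondrial kinase of non-muscle tissue was low. Ckmt1 (GeneID 12716; chromosome 2, 121357773 to 121363737, plus strand) had 200, 194, 162 and 261 counts in cultures 1 to 4, or 4.87, 4.84, 4.34 and 6.16 CPM. Culture 4 was the highest and culture 3 the lowest, and the mean was 2.81 ± 0.43 RPKM. Ckb was 853-, 851-, 990- and 608-fold above Ckmt1 in RPKM in cultures 1 to 4, so that the ratio was lowest in culture 4, although Ckb led by a wide margin in each. In a test of Ckb against every other gene that passed a filter on low counts, the log2 ratio of Ckb to Ckmt1 was 9.66 ± 0.17 (SE; Ckb above in 4 of 4 libraries; quasi-likelihood test of edgeR, adjusted p = 3.61e-10 by Benjamini-Hochberg). At the level of Ckb this says little about Ckmt1 in particular, since 17096 of the 17104 genes tested (100% after rounding) were called lower than Ckb.

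The muscle forms were at the limit of detection. Ckm (GeneID 12715; chromosome 7, 19411094 to 19421583, plus strand) had 2 counts in culture 2 and 0 in the other cultures. The log2 ratio of Ckb to Ckm per length, over the summed counts, was 17.98 with an exact Poisson 95% interval of 16.12 to 21.02, which covers counting error only. Ckmt2 (GeneID 76722; chromosome 13, 91853386 to 91876923, minus strand) had 0 counts in every culture. Against the floor of 3 counts over the 4 libraries, Ckb was at least 185334-fold and Ckmt1 at least 231-fold above Ckmt2 per length. Of 7 skeletal muscle markers none was expressed in every library (2.03 CPM summed in culture 4, 2.95 to 3.31 CPM in the others), and Myog, a master regulator of muscle differentiation, had no count. No other marker of that list had 0 counts. Acta1 was the highest, at 0.98 CPM in culture 4 and 1.47 to 1.74 CPM in the others, and Myod1 had 26.1 counts in all. The antisense long noncoding RNA A930016O22Rik, which overlaps 3952 bases of Ckm, had 7 counts in all, and no source used here states whether counting used strand.

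Not all reads of Ckb could be placed at a single locus. Its counts were fractional in 4 of 4 libraries, as arises when a read is split between features. Fractional counts were not particular to Ckb: Gatm had them in 2 libraries and Gamt in 1, as did 31.7% of all values above 0. The counts of Ckmt1 and Slc6a8 were whole in every library, as were the 2 counts of Ckm. The pseudogene entry Gm12892 (GeneID 666937; chromosome 4, 122008130 to 122009562, plus strand), a processed pseudogene in GENCODE, shared 309 of the 1423 stretches of 50 bases of Ckb. It held 19348, 18602, 18928 and 17901 counts in cultures 1 to 4, which was 13.8%, 13.7%, 14.3% and 13.7% of the Ckb counts in the same library. The share was nearly level across the cultures, with culture 3 the highest. Ck-ps3 (chromosome 16, 38483182 to 38484596), described in the table as a creatine kinase pseudogene, held 1557, 1506, 1498 and 1497 counts, or 1.11% to 1.15% of the Ckb counts. Ckb-ps1 held 8.99 counts and Ckb-ps2 12.8 counts in all. These 2 shared 3 and 5 of the stretches of 50 bases of Ckb, and no shared stretch was found under the name Ck-ps3. With the counts of these 4 entries added, Ckb would stand at 3861 ± 231.3 CPM, 1.15 times the deposited level and 6th in the table, and 13.0% of that sum lay in the pseudogene entries. How many of those reads came from Ckb transcripts was not tested.

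**Figure D2:**
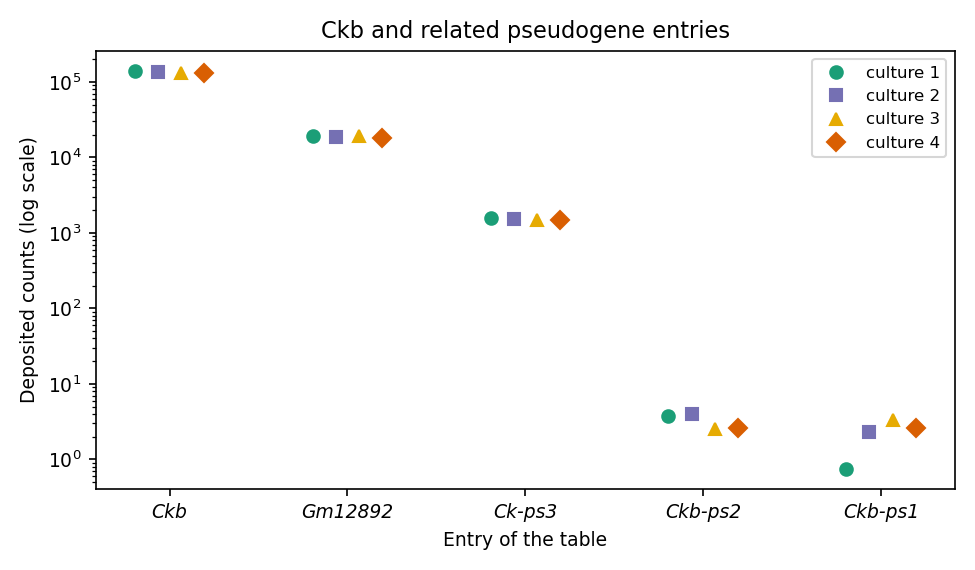
Deposited counts (log axis) of Ckb and of the pseudogene entries Gm12892, Ck-ps3, Ckb-ps2 and Ckb-ps1 in each culture. Gm12892 runs beneath Ckb at 13.7% to 14.3% of its counts in all 4 cultures, and Ck-ps3 at 1.11% to 1.15%.

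Both enzymes of creatine synthesis were expressed, and the enzyme of the earlier step was the higher. Gatm (GeneID 67092; chromosome 2, 122594473 to 122611277, minus strand) stood at 29.7, 30.9, 29.4 and 20.1 RPKM in cultures 1 to 4, with a mean of 27.5 ± 4.98 RPKM (64.8 ± 11.7 CPM, rank 2929 of the table by RPKM). Gamt (GeneID 14431; chromosome 10, 80258151 to 80261025, minus strand) stood at 14.5, 14.0, 13.9 and 11.2 RPKM, with a mean of 13.4 ± 1.5 RPKM (14.7 ± 1.65 CPM, rank 5266). For both genes cultures 1 to 3 lay together and culture 4 was the lowest, and Gatm was above Gamt in every culture, by 2.05-, 2.21-, 2.11- and 1.80-fold. The log2 ratio of Gatm to Gamt was 1.03 ± 0.18 (SE; Gatm above in 4 of 4 libraries; edgeR quasi-likelihood test, adjusted p = 8.2e-09). Of all genes tested against Gatm 92.4% were called different in either direction and 78.7% were called lower than Gatm, so a call against it is common. When the counts of cultures 1 to 3 were added into a single sample, the call was lost at a ratio of 1.96 (edgeR, adjusted p = 0.0786); without the length term Gatm was 4.38-fold above Gamt.

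The creatine transporter lay close to Gatm in level. Slc6a8 (GeneID 102857; chromosome X, 73673133 to 73682502, plus strand) had 127.2, 128.4, 137.0 and 82.2 CPM in cultures 1 to 4, or 32.0, 32.3, 34.4 and 20.6 RPKM (mean 29.8 ± 6.21 RPKM, rank 2718). Culture 4 was the lowest and culture 3 the highest. The RPKM ratio of Gatm to Slc6a8 was 0.93, 0.96, 0.85 and 0.97 in cultures 1 to 4, below 1 in each, but the difference did not pass the test (log2 ratio -0.11 ± 0.17 SE; edgeR quasi-likelihood test, adjusted p = 0.536). Without the length term Slc6a8 was the higher of the pair (log2 ratio of Gatm to Slc6a8 -0.87; edgeR, adjusted p = 6.51e-07), as its exons are annotated at 3981 bases, and those of Gatm at 2357. Without culture 4 the difference of -0.13 ± 0.034 (SE) passed the test (edgeR, adjusted p = 0.000124). That p rests on cultures 1 to 3 only. It does not measure the spread of this ratio alone, as edgeR shares its estimate of spread among the genes tested against Gatm. Slc6a8 was 2.21 ± 0.26 times the level of Gamt in RPKM. In the order of RPKM, Ckb was 78.5 ± 15.0 times the level of Slc6a8 and 84.4 ± 13.2 times that of Gatm. Slc6a8 and Gatm were close (RPKM ratio of Gatm to Slc6a8 0.93 ± 0.053) and were not called different over the 4 cultures. Gamt, Ckmt1 and the 2 muscle forms followed. Reads of Gm32261, an antisense long noncoding RNA that overlaps 1170 bases of Slc6a8, came to 20 to 33 counts a library.

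**Figure D3:**
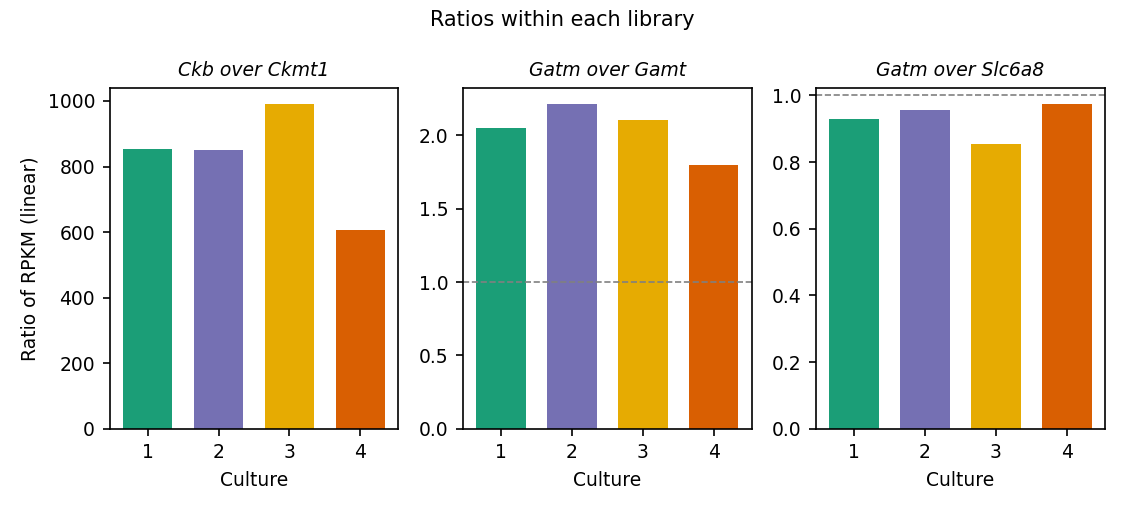
Ratio of RPKM within each library (linear axes from 0) for Ckb over Ckmt1, Gatm over Gamt and Gatm over Slc6a8; the dashed line marks equal levels. Ckb over Ckmt1 is lowest in culture 4 at 608, Gatm over Gamt lies between 1.80 and 2.21, and Gatm over Slc6a8 between 0.85 and 0.97.

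Over all 4 cultures, the genes of synthesis and uptake varied more than Ckb, an order that turned round for Gatm and Gamt without culture 4. The BCV was 0.176 for Slc6a8, 0.154 for Gatm, 0.140 for Ckmt1, 0.114 for Gamt and 0.0781 for Ckb, above that of 89.5%, 84.7%, 80.5%, 65.6% and 35.0% of the 17105 genes that passed the filter, whose median was 0.0941. Without culture 4 the 5 values fell to between 0.0240 and 0.0320, and the median for all genes to 0.0255. Gatm at 0.0242 and Gamt at 0.0240 then lay below Ckb at 0.0257. Slc6a8, Ckb, Gatm and Gamt were above 62.9%, 51.6%, 36.8% and 33.8% of genes without culture 4. Ckmt1, at 0.0320, was still above 80.5% of genes.

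In culture 4 the levels of Slc6a8, Gatm, Gamt and Ckb were below those of all other cultures, and that of Ckmt1 was above them. Slc6a8 stood at 82.2 CPM in culture 4, against 127.2 to 137.0 CPM in the others, a log2 difference of -0.67 from their mean; 4.80% of the 14725 expressed genes differed by more in either direction. Gatm stood at 47.4 CPM, against 69.2 to 72.8 CPM (log2 difference -0.58, exceeded by 6.82% of genes), and Gamt at 12.2 CPM, against 15.3 to 15.9 CPM (-0.34, exceeded by 18.8%). Ckb, at 3080 CPM against 3390 to 3538 CPM, had a log2 difference of -0.16, which 47.9% of expressed genes exceeded. Ckmt1, at 6.16 CPM against 4.34 to 4.87 CPM, had a log2 difference of 0.40, exceeded by 14.4%. Culture 4 lay below all others in 34.6% of the expressed genes and above all others in 47.6%. With 5 genes, 4 below and 1 above, nothing particular to the set is read from these shares. These orders were the same with TMM and with DESeq2 scaling. They are values of a single library, with no test.

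**Figure D4:**
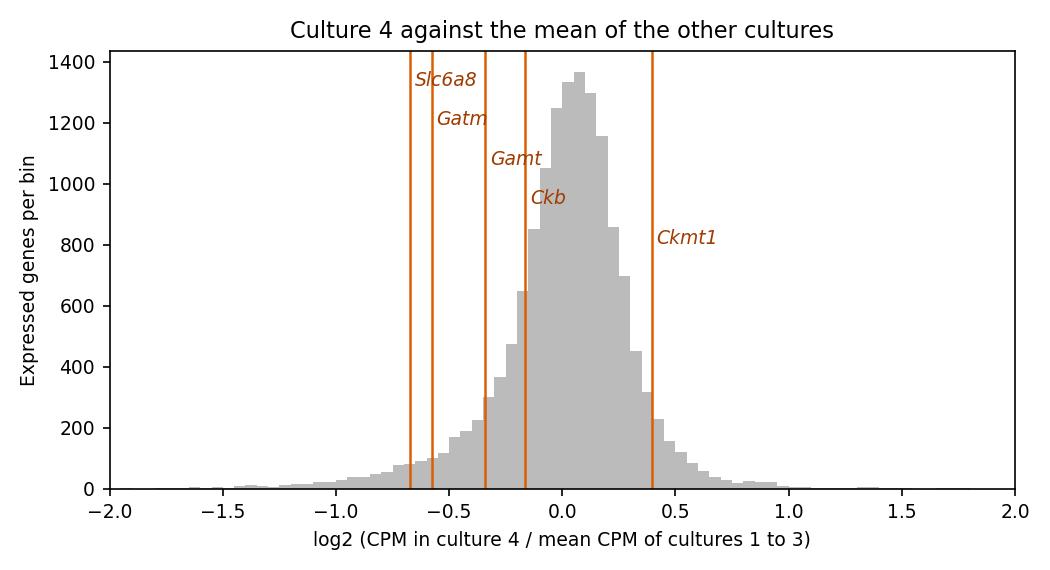
Distribution over the expressed genes (bins of log2 units) of the level in culture 4 over the mean of cultures 1 to 3; vertical lines mark the 5 expressed creatine genes, and 20 genes lie outside the plotted range of ±2. Slc6a8 (-0.67) and Gatm (-0.58) lie in the lower tail, Gamt (-0.34) and Ckb (-0.16) on the lower side, and Ckmt1 (0.40) on the upper side.

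Culture 4 also differed in sex-linked transcripts, and Slc6a8 is a gene of the X chromosome. Xist, the RNA that coats the inactive X chromosome, stood at 732.1 CPM in culture 4 and at 0.15 CPM in each of cultures 1 to 3. Of 4 genes of the Y chromosome, Eif2s3y stood at 0.07 CPM in culture 4 and 80.3 to 83.5 CPM in the others, Ddx3y at 0.09 and 67.5 to 76.4 CPM, Kdm5d at 0.02 and 28.8 to 29.6 CPM, and Uty at 0.02 and 20.9 to 21.8 CPM. The autosomal Gatm was also lower in culture 4. Culture 4 was below all others in 5 of 5 fibroblast, 7 of 7 microglial, 4 of 5 mural, 4 of 8 neuronal and 5 of 10 astrocyte markers. So were 5 of 10 oligodendrocyte lineage, 2 of 5 endothelial, 4 of 7 skeletal muscle and 0 of 4 ependymal markers. Above all others were 5 astrocyte and 4 oligodendrocyte lineage markers, and 1 each of the neuronal, endothelial and skeletal muscle lists. Over the expressed genes 34.6% were below and 47.6% above, while these lists include markers that were not expressed. The part of sex or of cell mixture in the values of Slc6a8, Gatm and Gamt was not tested.

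The genes whose pattern over the 4 libraries was most like that of each member, among 10726 genes with a mean of at least 10 CPM, were found by the root mean square difference of centred log2 CPM. For Slc6a8 they were Kazn (0.0149), the lysosomal protease Ctsd (0.0173) and the protocadherin Pcdhgc5 (0.0176). Gatm was nearest to Plek (0.00583), Pcp4 (0.0133) and the glutathione transferase Gstt1 (0.0147). Gamt was nearest to Fndc5 (0.00185), Plxdc2 (0.00736) and Ssh3 (0.00989), and Ckb to the protocadherin Pcdhga4 (0.00169), Dhrs7b (0.00236) and Wbp1l (0.00357). Such likeness is over 4 libraries only, of which culture 4 stood apart.

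The genes around the pathway were read from lists of substrates, cofactors and partners. Beside the counts that follow, 32.2% of all genes and 58.1% of protein-coding genes were expressed, and Gatm ranked 2929 of 45703 genes by RPKM. The share expressed ran from 35% (SLC6 family) to 91.7% (glycine supply) over the lists, and no list was tested against those shares. Of 13 genes of arginine and ornithine metabolism 8 were expressed, with 5 above Gatm in RPKM. The 3 highest in CPM were Azin1, the antizyme inhibitor, at 81.3 ± 5.08 RPKM, Oat, which converts the ornithine released by Gatm, at 187.9 ± 5.02 RPKM, and Odc1, which turns ornithine into putrescine, at 120.5 ± 2.47 RPKM. Transport of arginine and ornithine was represented by 7 of 9 genes, among them Slc3a2, the heavy chain of amino acid exchangers, at 62.8 ± 11.2 RPKM, and the cationic amino acid transporters Slc7a2 and Slc7a1 at 16.4 ± 0.54 and 7.06 ± 0.25 RPKM.

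Of 12 genes of glycine supply and breakdown 11 were expressed, 7 of them above Gatm in RPKM. Psat1 and Phgdh, enzymes of serine synthesis, stood at 179.3 ± 5.30 and 95.2 ± 5.60 RPKM, and Dld, the lipoamide dehydrogenase of the glycine cleavage system and of other complexes, at 97.8 ± 6.31 RPKM. Of 15 genes of S-adenosylmethionine supply and use 10 were expressed and 3 stood above Gatm. Mat2a, which makes S-adenosylmethionine outside the liver, stood at 114.9 ± 3.97 RPKM, and Ahcyl1 and Ahcyl2, relatives of the enzyme that clears S-adenosylhomocysteine, at 89.9 ± 1.32 and 16.6 ± 2.18 RPKM. The liver form Mat1a and the betaine-dependent enzyme Bhmt had no count.

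The partners of mitochondrial creatine kinase were abundant where the kinase itself was low. Of 7 genes 6 were expressed, all 6 above Gatm, with the adenine nucleotide carriers Slc25a4 and Slc25a5 at 612.8 ± 35.0 and 448.2 ± 6.55 RPKM and the outer membrane channel Vdac1 at 254.8 ± 5.72 RPKM, against 2.81 ± 0.43 RPKM for Ckmt1. Of 17 other kinases that transfer phosphate between nucleotides 15 were expressed, 8 above Gatm. The mitochondrial adenylate kinase Ak3 stood at 85.4 ± 2.79 RPKM, the nucleoside diphosphate kinase Nme2 at 162.4 ± 4.91 RPKM and the cytosolic adenylate kinase Ak1 at 61.6 ± 5.45 RPKM. None of the genes in these lists reached the level of Ckb.

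Slc6a8 belongs to a family of sodium- and chloride-coupled transporters, of which 7 of 20 entries (35%) were expressed, near the 32.2% of all genes. Slc6a8 stood at 29.8 ± 6.21 RPKM and the taurine transporter Slc6a6 at 25.4 ± 2.18 RPKM, a difference smaller than the SD of Slc6a8. In culture 4 Slc6a8 stood at 20.6 RPKM and Slc6a6 at 22.2 RPKM, while in cultures 1 to 3 Slc6a8 was the higher, at 32.0 to 34.4 RPKM, with Slc6a6 at 26.4 to 26.8 RPKM. Of 4 other genes linked to creatine, 2 were expressed: the phosphatase Alpl at 8.15 ± 0.22 RPKM and Phospho1, a phosphatase known for phosphocholine, at 8.43 ± 0.96 RPKM. The monocarboxylate transporter Slc16a12, which carries creatine, was at 0.17 ± 0.049 RPKM, and Asb9, an adaptor of an E3 ligase that binds creatine kinase, had no count.

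**Figure D5:**
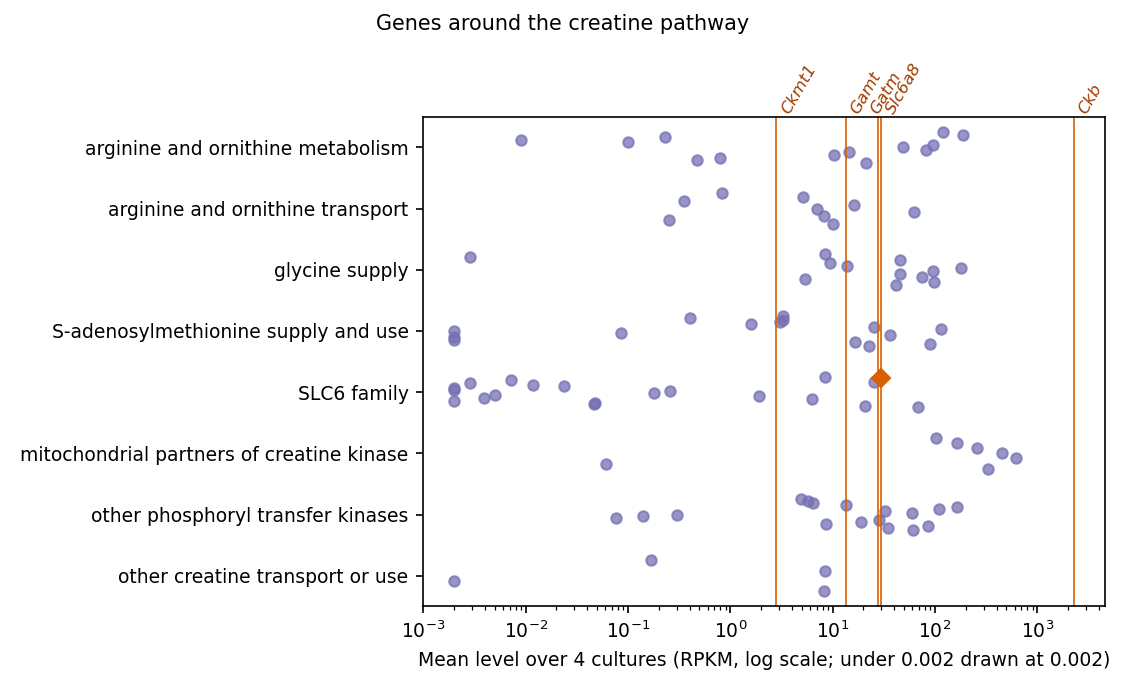
Mean RPKM over the 4 cultures (log axis; values under 0.002 are drawn at 0.002) of the genes in 8 lists around the creatine pathway; each point is a gene, the diamond is Slc6a8 and vertical lines mark the 5 expressed creatine genes. No listed gene lies to the right of Ckb, and 6 of the 7 mitochondrial partners lie far to the right of Ckmt1.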

How the data were processed

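RNA of 4 cultures was made into stranded poly-A libraries from 500 ng of total RNA with 14 PCR cycles, per the labels' protocols. Of tools, the submitters' processing notes list STAR 2.7.2b, featureCounts 1.6.4 (Subread), cutadapt 1.17 and bcl2fastq 2.20.0.422, with the build GRCm38.p6; no source used here gives their settings. The authors' deposited table holds estimated counts per gene, of which 31.7% of those above 0 are not whole. Exon lengths are the deposited values. CPM, RPKM and TPM were computed from counts and library sums. The members, lists and settings were chosen with earlier results of these data known, and the sex-linked genes, the summed cultures and the added pseudogene counts were chosen after seeing these values.

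Ratios were tested with edgeR 4.0.16 (glmQLFit, two-sided) on counts rounded to whole numbers. Each gene passing filterByExpr was set against Ckb or Gatm, with the log of library sum times exon length as offset and terms for library and gene. P-values were adjusted over 17104 genes at a threshold of 0.05; features share the counts of Ckb or Gatm. The SE is the log2 ratio over the root of its F, so it draws on a spread estimated across the genes tested. Ckm and Ckmt2 did not pass the filter. The fit was tested on simulated data. DESeq2 1.42.0, limma 3.58.1 (0.5 counts added), other lengths and filters, and leaving out each culture were alternatives. BCV used TMM and no covariate. GENCODE lengths were those of the longest coding transcript. In each list the 3 expressed genes highest in CPM were named; 1 gene so chosen is not reported here, and other listed genes at or near 0 were named after their values were seen. Likeness of pattern was the root mean square difference of centred log2 CPM. At these depths 1 read is 0.0236 to 0.0268 CPM; the labels name no molecular identifiers, so intervals and floors cover counting error only.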

Additional observations from a re-analysis of the deposited data

Results flagged for a closer look

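A single culture stood far from the other 3, by a gap to the nearest culture, as a share of the whole range, above Dixon's 95% critical value, in 6 of 35 sets of 4 values examined, and in each it was culture 4. Chance flags about 1 in 20 independent sets, and these sets are not independent, as they share that culture. Among the creatine genes these were Gatm (ratio 0.859; 47.4 CPM in culture 4, 69.2 to 72.8 CPM in the others) and Gamt (0.833; 12.2 CPM, against 15.3 to 15.9 CPM). The RPKM ratio of Ckb to Slc6a8 had a gap ratio of 0.910, at 100.9 in culture 4 and 69.6 to 72.4 in the others, while Slc6a8 on its own was below the limit. Of the surrounding genes they were Ahcyl2 (0.863; 86.8 CPM in culture 4, against 113.2 to 117.4 CPM), Slc6a6 (0.906; 143.2 CPM, against 170.4 to 173.2 CPM) and Slc25a4 (0.879; 746.7 CPM, against 833.0 to 844.9 CPM). The sex-linked genes Xist (1.0), Eif2s3y (0.961), Ddx3y (0.883), Kdm5d (0.974) and Uty (0.959) were also apart in culture 4; they were picked after their values were seen and are not among the 35 sets. Over the expressed genes, culture 4 lay below all others in 34.6% and above all others in 47.6%. The share of expressed genes that this rule would flag was not computed, so nothing particular to the creatine genes is read from the flags. The part of sex, cell mixture or preparation in the creatine genes was not tested.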

How the results depend on the processing

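Of 151 recomputed values, 142 kept their direction and their side of the threshold or, for values with no test, moved little beside the spread or the main value. Among these, the log2 ratio of Gatm to Gamt was 2.13 without exon length in place of 1.03, and Ckm was at 0 without culture 2, which held both its counts. With its pseudogene counts added, a choice made after seeing the data, Ckb stood at 3861 CPM in place of 3357 CPM. The log2 ratio of Gatm to Slc6a8 was -0.87 and passed the threshold with exon length left out (edgeR, adjusted p = 6.51e-07), and over the cultures left out in turn it ranged from -0.13 to -0.069, passing only without culture 4 (edgeR, adjusted p = 0.000124). The log2 ratio of Gatm to Gamt was 0.97 with cultures 1 to 3 summed as 1 sample and no longer passed (edgeR, adjusted p = 0.0786), and it ranged from 0.99 to 1.08 over cultures left out. The BCV over cultures left out ranged from 0.0257 to 0.0939 for Ckb, 0.0320 to 0.170 for Ckmt1, 0.0242 to 0.173 for Gatm, 0.0240 to 0.134 for Gamt and 0.0274 to 0.191 for Slc6a8, each lowest without culture 4. At a minimum of 5 CPM 4 of the 7 genes were expressed in place of 5. Fits of Ckm and Ckmt2 by edgeR, DESeq2 or limma were not run, since these genes had too few counts. No paired analysis was possible because the series has a single group. Depth limits statements on Ckm and Ckmt2, for which 3 counts in all was the floor.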
